A study of Mus musculus with 2 samples.

Results

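The cytosolic ribosomal proteins were taken as every feature whose symbol begins with Rpl or Rps and a digit, together with Rpsa, Rplp0, Rplp1 and Rplp2, with 16 pseudogene symbols and 10 Rps6 kinase symbols left out. This gave 87 of the 28006 counted features, 53 of the large subunit (Rpl, Rplp) and 34 of the small subunit (Rps, Rpsa). The rule used symbols only and no measured value. By name it also took in Rps19bp1, which encodes a protein that binds Rps19 and is not a subunit, and Rpl6l, which the GENCODE annotation lists as a processed pseudogene. All 87 genes had an annotated position, spread over 19 chromosomes with at most 14 on any, 4 of them on X.

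Ribosomal proteins join ribosomal RNA in the nucleolus to form a small subunit, which reads the mRNA, and a large subunit, which joins amino acids. Their mRNAs are among the most abundant of growing cells, and many begin with a stretch of pyrimidines through which mTOR signaling controls their translation. Several proteins have a second gene that encodes a close copy, and loss of a copy of some of them impairs red cell formation in Diamond-Blackfan anemia. In bone marrow, proliferating blood progenitors and matrix-secreting osteoblast-lineage cells are known for high protein synthesis.

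Single-cell libraries were made from GFP+ bone marrow mesenchymal cells of the femurs of 2 mice, 1 library per mouse, with the 10x Genomics chemistry that counts the 3' ends of transcripts by UMI, a molecular tag. Both mice were Cxcl12(GFP/+); Cxcl12-iCreER; R26R(tdTomato/+), received tamoxifen at postnatal day 21 and were analyzed at day 28, so no groups of animals were compared. Every mouse had lost an allele of Cxcl12 to GFP, and the iCreER is a bacterial artificial chromosome transgene. The tdTomato signal is thus meant to mark cells in which that transgene was active after tamoxifen, and their descendants. In some mice the paper also found tdTomato+ cells without tamoxifen, nearly all in the fraction with blood or endothelial markers. A protocol label names a tdTomato+ sort where the cell and design labels name GFP+ cells, and the libraries were treated as GFP+ sorts. Levels are CPM, the UMIs of a gene per 1000000 UMIs of the same cells, and per-mouse values are given as Mouse #1 and then Mouse #2.

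The libraries held 54940400 and 88790688 UMIs, and 2750 and 4582 barcodes passed as cells, with 7 barcode sequences in common. Ribosomal proteins took 11.99% and 11.07% of all UMIs, and 12.6% and 12.1% of those in near-empty barcodes of at most 100 UMIs, which hold free RNA. Cells were clustered without the ribosomal proteins, and 10 classes were named from marker genes with the ending "-like", because these names were rebuilt here. Blood cells were present despite the sort: the neutrophil marker list took 401069 and 419441 CPM of the neutrophil-like cells and the erythroid list 362058 and 317567 CPM of the erythroid-like cells. With 2 mice, p-values rest on the spread between the mice within a class, pooled over the classes of a fit. Unless the mouse is a block in the fit, classes of the same mouse are taken as independent.

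The start of the transcript is shown for the genes on which later results turn, as 30 bases of the RefSeq start site (15 before and 15 after it, GRCm38.p6), with an unbroken run of at least 8 C or T bases in capitals. The following 5 have such a run: Rps26, Rpl39, Rpl22l1, Rps27 and Rps9, at chr10:128626492-128626521 (minus strand), chrX:37085208-37085237 (minus), chr3:28805493-28805522 (plus), chr3:90213634-90213663 (minus) and chr7:3704026-3704055 (plus).
Rps26: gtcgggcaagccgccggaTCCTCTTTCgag
Rpl39: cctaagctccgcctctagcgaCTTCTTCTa
Rpl22l1: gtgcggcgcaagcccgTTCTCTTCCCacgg
Rps27: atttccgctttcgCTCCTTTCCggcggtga
Rps9: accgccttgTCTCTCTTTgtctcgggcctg
The following 4 have no run of this length in the window: Rpl41, Rpl36a, Rpsa and Rpl39l, at chr10:128549154-128549183 (minus), chrX:134585639-134585668 (plus), chr9:120127751-120127780 (plus) and chr16:10170213-10170242 (plus).
Rpl41: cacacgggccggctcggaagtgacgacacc
Rpl36a: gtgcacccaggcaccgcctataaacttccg
Rpsa: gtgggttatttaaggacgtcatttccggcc
Rpl39l: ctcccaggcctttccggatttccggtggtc

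Of 78 windows matched to 66 of the 87 genes, 28 (35.9%) held a run on the transcript strand, against 3943 of all 32851 windows (12.0%). Read on the opposite strand, as a run of A or G, 3 member windows (3.85%) and 4352 of all windows (13.2%) held one. By gene, 27 of the 66 ribosomal proteins (40.9%) had a run, compared with 2 of 10 translation factors with a window (20%), 9 of 68 mitochondrial ribosomal proteins (13.2%) and 0 of 16 ribosome biogenesis genes. A run is a match of letters and not a measured site, and a window without it says nothing of control.

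Over all cells, 80 members reached 100 CPM and 63 exceeded 1000 CPM, whereas 3 stayed under 10 CPM. Rpl41, a very short basic peptide of the large subunit, had the highest level (4182 CPM), and Rps29 (3474 CPM), the acidic stalk protein Rplp1 (2658 CPM) and Rps12 (2609 CPM) were also among the most abundant. At the other end stood Rpl3l (0.756 CPM, 84 UMIs), Rpl6l (3.26 CPM), Rps19bp1 (30.1 CPM), Rpl7l1 (54.7 CPM) and Rpl39l (59.5 CPM). Rpl10l had 0 of 111094027 UMIs, which allows up to 0.0270 CPM. A 3' tag counts a transcript once, so these levels are not divided by length. For 42 members more than 50% of the 50-base stretches in the last 300 bases also occur in another annotated gene, and for 15 in another counted feature. Reads could thus have been dropped or split, and levels of different members are uncertain. Of the genes named below, the 15 include Rplp1 (66.9%), Rps26 (62.5%) and Rpl9 (54.1%), and Rpl36a has 100% in other annotated genes. The part of this in their values was not tested.

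The share of ribosomal protein UMIs separated the classes. Among the named classes, lymphoid cells held the highest shares, and an unnamed cluster with C1qa and Ccr2 was close to them (23.9% and 23.2%). Pro-B-like cells held 23.5% and 27.4% (mean 25.5% ± 2.81, SD, n = 2 mice) and mature B-like cells 21.8% and 23.6% (22.7% ± 1.32). In these sums pro-B-like cells were higher in both mice. The granulocyte progenitor-like class (18.8% and 16.5%) came next with the erythroid-like class (15.3% and 17.8%), in an order that differed between the mice. Among stromal cells, preosteoblast-like cells led with 13.4% and 14.6%, followed by osteoblast-like (12.1% and 13.3%, only 14 and 61 cells), periosteal-like (10.4% and 10.1%) and reticular-like cells (9.39% and 9.22%). The preosteoblast-like range lay just above the osteoblast-like range and well above the periosteal-like and reticular-like ranges. The order against osteoblast-like cells was not stable. As means over cells the ranges overlapped (11.5% and 12.6% against 10.8% and 12.9%). At a finer clustering, where part of the preosteoblast-like cells stayed unnamed, it turned (11.6% and 10.5% against 12.7% and 13.1%). Endothelial-like cells (12.3% and 13.2%) overlapped with osteoblast-like cells, and neutrophil-like cells were lowest, at 3.51% and 3.60%.

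**Figure D1:**
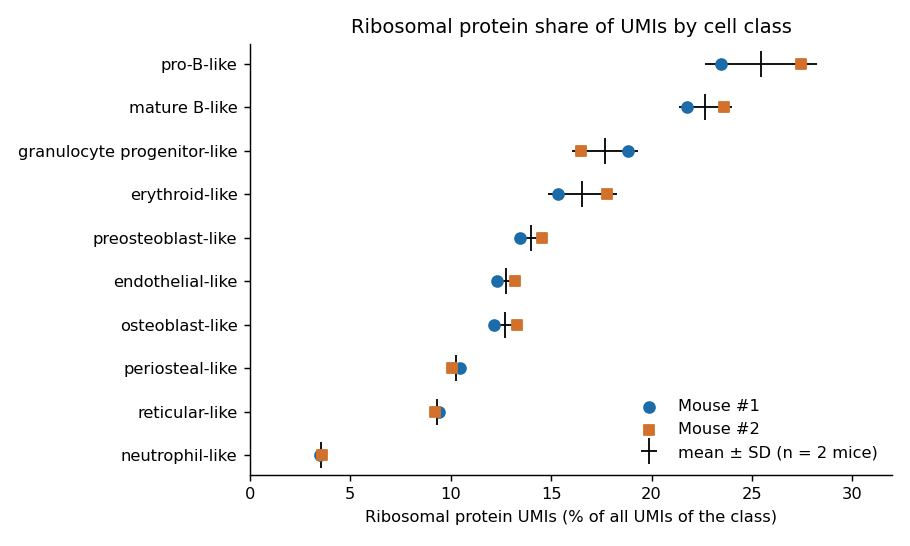
Percent of all UMIs that came from the 87 ribosomal protein genes (x axis) in each class (rows), with 1 point per mouse and the mean ± SD of 2 mice as bars. Neutrophil-like cells stand at 3.51% and 3.60%, reticular-like cells at 9.39% and 9.22%, and pro-B-like cells at 23.5% and 27.4%.

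Compared with reticular-like cells of the same mouse, preosteoblast-like cells had 4.04 and 5.34 percentage points more and neutrophil-like cells differed by -5.89 and -5.61 points. An exact permutation test of 2 against 2 sums cannot go below p = 0.333, and it leaves out that both classes come from the same mice. With 2 pairs the floor is no lower, so no p is given for these shares. A share depends on what else a cell transcribes: with the marker genes of all classes left out of the total, erythroid-like cells rose in value to 24.3% and 26.3%, granulocyte progenitor-like cells to 24.994% and 23.02%, and neutrophil-like cells only to 5.92% and 6.29%. Reticular-like cells then stood at 9.64% and 9.46%, pro-B-like cells at 23.9% and 27.7% and mature B-like cells at 22.0% and 23.9%. In Mouse #1 the granulocyte progenitor-like and erythroid-like shares were thus above those of both B-lineage classes.

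Shares also moved with the number of UMIs per cell within a class. When preosteoblast-like cells of each mouse were ranked by UMIs and cut into 3 equal parts, the shallow, middle and deep parts held 8.98%, 11.2% and 15.9% in Mouse #1 and 9.58%, 11.9% and 17.4% in Mouse #2. Reticular-like cells changed less, from 8.26% to 10.0% and from 8.08% to 9.87%. Erythroid-like cells changed most, from 5.31% to 22.7% and from 3.59% to 27.0%. Per cell, Spearman's rho of share and UMIs was 0.558 over 418 and 0.564 over 794 preosteoblast-like cells, and 0.241 and 0.292 over 1243 and 2427 reticular-like cells, as a description in which the UMIs enter both measures. Among cells of 10000 to 20000 UMIs the preosteoblast-like share was 11.2% and 11.5% (176 and 347 cells) and the reticular-like share 9.39% and 9.18% (679 and 1269 cells). The difference between these classes was smaller in this window. The window limits depth and does not match it within.

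**Figure D2:**
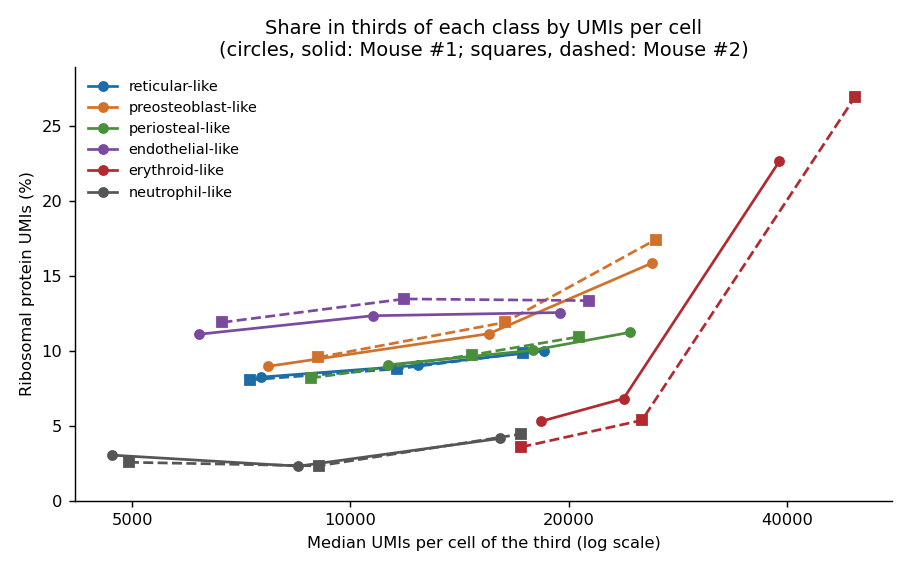
Ribosomal protein share of UMIs (y axis, %) in 3 equal parts of each class against the median UMIs per cell of the part (x axis, log scale), with circles and solid lines for Mouse #1 and squares and dashed lines for Mouse #2. The preosteoblast-like lines climb from 8.98% and 9.58% to 15.9% and 17.4%, while the reticular-like lines end at 10.0% and 9.87%.

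A finer clustering showed where this range lay. Preosteoblast-like cells of a finer cluster led by Npy and Omd held 17.0% and 17.9% (62 and 307 cells), those led by Spp1 and Gzme 13.95% and 12.2% (131 and 219 cells), and those led by A430027H14Rik and Slc20a2 11.6% and 10.5% (189 and 220 cells). A shallow remainder of 32 and 38 cells held 3.32% and 3.12%. The median UMIs were 19616 and 20400 in the Npy-led, 21064 and 18655 in the Spp1-led and 13385 and 11613 in the Slc20a2 cells, and the part of depth in these shares was not tested. In erythroid-like cells, the finer cluster with Car1 and Klf1 held 17.0% and 22.0%, and that led by the hemoglobins and Slfn14 only 3.60% and 2.22%.

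Genes of a class were tested on UMIs summed per mouse and class in edgeR's quasi-likelihood model, with Benjamini-Hochberg adjustment over all 12685 tested genes; 86 members were tested, all but Rpl10l. The model pooled 18 sums of 9 classes, and osteoblast-like cells were left out because a mouse had under 20 cells. Log2 fold changes are relative to TMM scaling, and the 3 comparisons with reticular-like cells share the same reticular-like sums.

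Preosteoblast-like cells, which express matrix genes, had more ribosomal protein mRNA than reticular-like cells, the Cxcl12-abundant stroma of the marrow. Of 86 members, 56 were higher and 0 lower, where 9.59% of all tested genes were called higher and 11.7% lower. The members' median log2 fold change was 0.50, beside -0.01 over all genes. Both subunits took part, with 34 of 52 large and 22 of 34 small subunit genes called, and the members with a C/T run at the start had a median of 0.48 against 0.50 for those without. Rps26, which lies at the mRNA exit channel, changed most among abundant members, from 1037 and 1010 CPM in reticular-like cells to 1909 and 2019 CPM in the preosteoblast-like class. This was a difference of 0.84 ± 0.14 (log2 fold change ± SE), with an edgeR adjusted p of 0.000467. Rpl4, a large subunit protein of the exit tunnel, followed with 0.78 ± 0.14 (571.6 and 644.5 against 332.8 and 329.9 CPM, edgeR adjusted p = 0.000883). Rps18, Rps19 and Rplp1 each rose by a log2 fold change of 0.73, and Rplp1 went from 1840 and 1868 to 3021 and 3539 CPM. In these genes the values of the classes did not overlap in either mouse. Rpl3l was also called, from 7 and 9 UMIs against 1 and 0, so its fitted fold depends on the prior count and is not given.

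**Figure D3:**
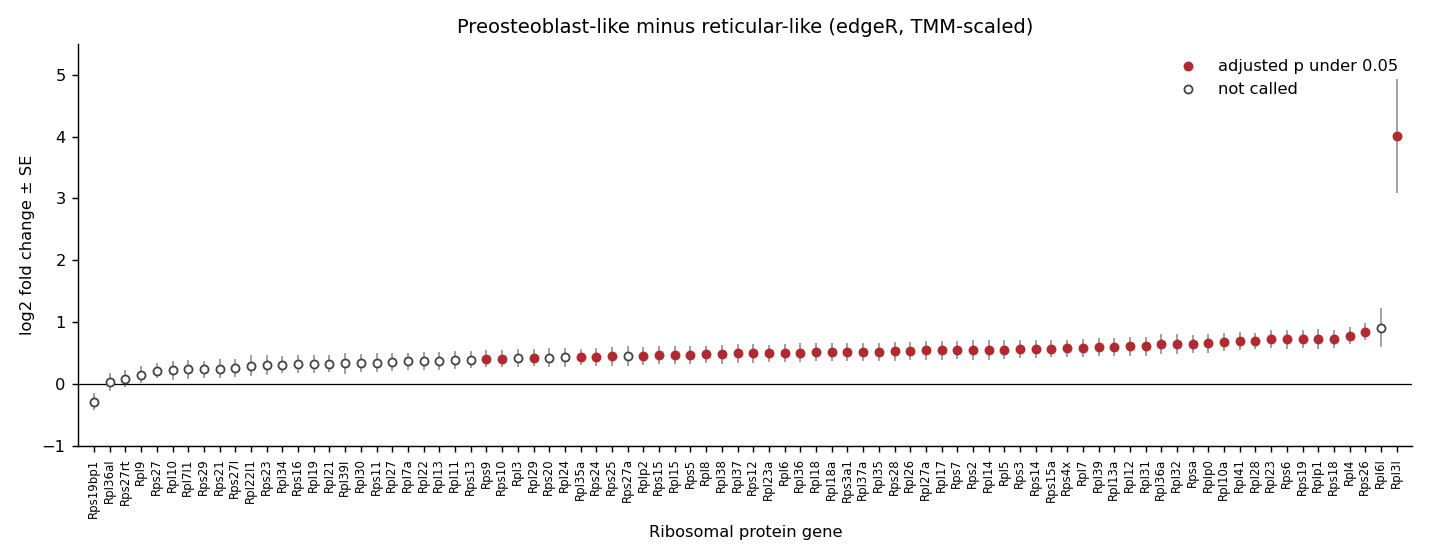
Log2 fold change ± SE (y axis) of 84 of the 86 tested members (x axis), preosteoblast-like minus reticular-like, in order of size. Of these, 54 filled points pass an edgeR adjusted p under 0.05, all above 0, and Rps19bp1 at -0.29 is the only member below 0.

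The stalk proteins Rplp0 (0.66), Rplp1 (0.73) and Rplp2 (0.45), which recruit elongation factors, were called, as was Rpsa (0.65), the laminin-binding protein of the small subunit. Of the 9 Diamond-Blackfan genes 8 were called higher, with Rps26 and Rps19 leading and Rpl11 (0.38, edgeR adjusted p = 0.0793) not called. Members that did not pass included Rpl36al (0.03), Rps27rt (0.09), Rpl9 (0.15), Rps27 (0.22) and Rps29 (0.24). When the sum of ribosomal protein UMIs was used as the library size, which asks who departed from the common change, 2 of 86 members were higher and 4 lower, beside 4.64% and 42.6% of all genes. Rps26 exceeded the common change by 0.35 (edgeR adjusted p = 0.0219), while Rps19bp1 (-0.77), Rpl36al (-0.46), Rps27rt (-0.41) and Rpl9 (-0.34) were below it, and Rpl3l was higher from the few UMIs given above. In cells of 10000 to 20000 UMIs this fit called 0 members in either direction.

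Other parts of the translation machinery moved in part. Of 16 translation factors 7 were higher and 0 lower, led by Pabpc1 (0.99), the poly(A)-binding protein, and Npm1 (0.82). Of 19 ribosome biogenesis genes 7 were higher, among them Wdr12 (0.75) and Nhp2 (0.74), and 1 was lower. Rack1, listed under its older symbol Gnb2l1, rose by 0.81. Of 76 mitochondrial ribosomal proteins 0 were higher and 2 lower, Mrps6 (-1.65) and Mrpl38 (-0.42). Of 9 regulators, the translation repressor Eif4ebp1 (-0.80) and the kinase Rps6kb1 (-0.53) fell, and Rps6ka1 rose by 1.70 at a level of at most 1.87 CPM.

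Depth moved with this comparison, since the median UMIs per cell were 15496.5 and 16323.5 in preosteoblast-like and 12397 and 11596 in reticular-like cells. Mitochondrial UMIs made up 5.31% and 6.21% against 3.76% and 3.94%, and the immediate early genes, which respond to stress and cell isolation, stood at 3455 and 4138 CPM against 10629 and 7831 CPM. The part of these in the result was not tested. Among cells of 10000 to 20000 UMIs, an alternative chosen after seeing the data, only Rpl4 passed (0.65, edgeR adjusted p = 0.0281), and the median over 84 members was 0.20 beside 0.02 over all genes. The count also fell to 11 without preosteoblast-like Mouse #2, to 14 without reticular-like Mouse #1 and to 13 without reticular-like Mouse #2. In simulated counts for this comparison, 28.4% of 67 genes changed 1.5-fold were called. Those genes were drawn over a wide range of levels and not from the members, so this is not the rate for members.

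Periosteal-like cells, fibroblasts of the bone surface, differed little from reticular-like cells in these genes. Only Rplp1 was called of 86 members, higher by 0.70 ± 0.16 (3151 and 2967 against 1840 and 1868 CPM, edgeR adjusted p = 0.0055), and 0 were lower, beside 9.08% and 9.75% of all genes. At an unadjusted p under 0.05, 4 members passed. The median was 0.11, beside -0.09 over all genes. The other stalk proteins had 0.33 (Rplp0) and 0.07 (Rplp2), neither called. Among the lists, Eif4b (0.52), Pabpc1 (0.48) and Tpt1 (0.44) rose, Myc (-1.93) and Nop10 (-0.55) fell, and 7 of 76 mitochondrial ribosomal proteins fell, a share near the 9.75% of all genes, with Mrps6 at -2.66. Without reticular-like Mouse #1 the count was 0, and DESeq2 called 25 members higher.

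In endothelial-like cells, which line the marrow vessels, 24 members were higher and 1 lower than in reticular-like cells, beside 21.2% and 24.3% of all genes, so the count called higher was near the background. The median was 0.27, beside -0.11 over all genes. Rps6, the target of S6 kinase, led with 0.82 ± 0.15 (925.7 and 920.1 against 468.6 and 473.5 CPM, edgeR adjusted p = 0.000413). Rpl5 (0.80), Rps27 (0.79), Rps21 (0.77) and Rps3 (0.77) followed. Rpl39l, a copy of the exit tunnel protein Rpl39, was the exception, with 5.05 and 11.3 CPM against 75.4 and 71.3 CPM in reticular-like cells. This gave a log2 fold change of -3.32 ± 0.25 (edgeR adjusted p = 3.69e-08), while Rpl39 itself was not called (1772 and 2038 against 1741 and 1689 CPM). Of the Diamond-Blackfan genes 5 of 9 were higher, Rpl5 leading. Of 16 translation factors 10 rose, with Pabpc1 (1.09) and Eif4b (1.02) in front, whereas 24 of 76 mitochondrial ribosomal proteins fell and 0 rose. The neutrophil list stood at 7754 and 5195 CPM in endothelial-like cells against 261.2 and 228.03 CPM in reticular-like cells, and its part in these values was not tested. The number called higher was 14 without endothelial-like Mouse #2 and 13 without reticular-like Mouse #1, and it rose to 55 when libraries were scaled to total UMIs.

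The largest change lay between neutrophil-like cells and granulocyte progenitor-like cells, the Mpo- and Elane-positive cells from which neutrophils arise. Here 83 of 86 members were lower and 1 higher, beside 25.4% and 21.9% of all genes, with a median of -2.10 where all genes had 0. Rpl36a fell most, from 1770 and 1404 CPM to 123.02 and 142.3 CPM, a log2 fold change of -3.27 ± 0.18 (edgeR adjusted p = 4.64e-09). Rpl3, which forms part of the peptidyl transferase region, fell from 1434 and 1279 to 143.8 and 141.3 CPM (-2.95). Rpl12 of the stalk base (-2.94) and Rpsa (-2.93) fell alike, and Rpl6l (-3.21) rests on a level under 4 CPM. All 9 Diamond-Blackfan genes fell, from -1.73 in Rpl35a to -2.48 in Rps19.

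The fall was uneven. Rps9, which sits near the mRNA entry of the small subunit, fell by 0.38 on the log2 scale, with 1440 and 1423 CPM against 2364 and 2221 CPM (edgeR adjusted p = 0.0323). Rps27 fell by 0.66 on the log2 scale, with 957.03 and 954.2 against 1847 and 1874 CPM. Of its 50-base stretches 58.5% occur in other counted features, most often Rps27rt. Rps27a, made as a fusion with ubiquitin, fell by 1.27 on the log2 scale. Rps27rt (-0.24), with 88.4% of its 50-base stretches in other counted features, most often Rps27, and Rpl39l (0.85) were not called. Rpl3l was the only member called higher, with 30 and 22 UMIs (17.3 and 10.8 CPM) in neutrophil-like cells against 2 and 4 UMIs (0.631 and 1.58 CPM), a log2 fold change of 3.999 ± 0.68 (edgeR adjusted p = 0.000439).

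**Figure D4:**
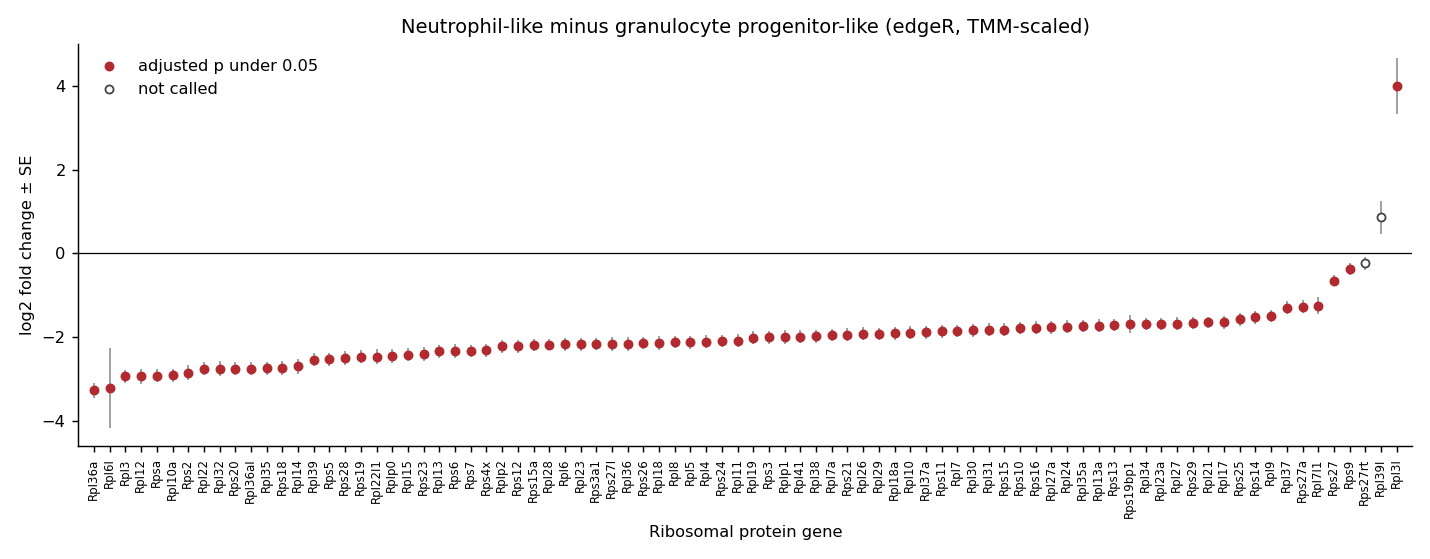
Log2 fold change ± SE (y axis) of 84 of the 86 tested members (x axis), neutrophil-like minus granulocyte progenitor-like, in order of size. Filled points pass an edgeR adjusted p under 0.05, most lie between -1 and -3, and Rps27 (-0.66), Rps9 (-0.38), Rpl39l (0.85, not called) and Rpl3l (3.999) stand to the right.

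Most of the rest of the translation machinery was lower as well. All 16 translation factors fell, led by Npm1 (-3.17), together with 66 of 76 mitochondrial ribosomal proteins and 15 of 19 biogenesis genes, led by the box H/ACA protein Gar1 (-3.91). In each of the last 2 lists 1 gene was called higher. Of the regulators Larp1, which binds pyrimidine-rich starts, fell (-1.38), and Eif4ebp1 (1.31) and Eif4ebp2 (0.77) rose. The members with a C/T run had a median of -2.15 and those without -2.05. The neutrophil list took 401069 and 419441 CPM of neutrophil-like and 216306 and 257140 CPM of granulocyte progenitor-like cells, and with all marker UMIs left out of the total the shares were 5.92% and 6.29% against 24.994% and 23.02%. Neutrophil-like cells were also shallower, with median UMIs of 8401.5 and 9033.5 against 33470 and 37430. They had 0.942% and 1.11% mitochondrial UMIs against 2.64% and 1.89%, and the cycling list stood at 75.1 and 38.6 CPM against 1636 and 1627 CPM. The part of depth, mitochondrial share and cycling in the result was not tested. Scaling to total UMIs moved the median of all genes from 0 to -0.30 and that of the members to -2.40.

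In UMIs summed per class, mature B-like cells had less ribosomal protein mRNA than pro-B-like cells, their cycling precursors. As means over cells the shares were 23.0% and 23.4% in mature B-like and 21.5% and 23.5% in pro-B-like cells. The order thus turned in Mouse #1, where the sums of both classes gave 23.8% with doublets removed. The deepest of 3 equal parts of the pro-B-like cells held 26.1% and 30.4%, and the shallowest 20.2% and 20.7%. Of 86 members 28 were lower and 3 higher, beside 14.7% and 11.2% of all genes, with a median of -0.31 beside 0.03. Rps27l, a copy of Rps27, fell most, from 452.7 and 501.4 CPM to 181.7 and 227.4 CPM, a log2 fold change of -1.39 ± 0.16 (edgeR adjusted p = 1e-05). Rps2 (-1.36), Rpl14 (-1.13), Rpsa (-0.96) and Rpl22l1 (-0.86) followed, and the stalk proteins Rplp0 (-0.83), Rplp1 (-0.76) and Rplp2 (-0.75) fell together. Rps27 moved the other way and rose by 0.45 ± 0.13, from 3596 and 3687 to 5405 and 5763 CPM (edgeR adjusted p = 0.0162), as did Rps27rt (0.57). Rpl39l was also called higher, from 12 and 9 UMIs against 0 and 1. Of the Diamond-Blackfan genes, Rpl5 fell (-0.43). Of the lists, 9 of 19 biogenesis genes fell, led by nucleolin (Ncl, -1.38), with 41 of 76 mitochondrial ribosomal proteins and 5 of 16 translation factors.

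The mature B-like cells were shallow, with median UMIs of 4546 and 4072 against 15749 and 13078. At the finer clustering 126 and 114 cells took the pro-B name outside the 49 and 49 cells used here, and 59 and 74 stayed mature B-like. Together these equal in number the 185 and 188 cells tested here as mature B-like. Most of the tested mature B-like class may thus take the pro-B name at the finer clustering. The cycling list stood at 4987 and 3968 CPM in pro-B-like and 59.9 and 51.02 CPM in mature B-like cells, and the neutrophil list at 10933 and 92.6 CPM in pro-B-like cells. The part of these in the result was not tested. The number called lower was 15 without mature B-like Mouse #1 and 17 without pro-B-like Mouse #2, and 18 when libraries were scaled to total UMIs, which moved the median of all genes to 0.20.

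The make-up of the ribosomal protein pool, taken as each gene's percent of member UMIs, differed between classes too. Among the 80 members of at least 100 CPM, the median ratio of the highest to the lowest class was 1.59, and 15 members exceeded 2. Rps9 varied most, from 1.05% of the pool in osteoblast-like to 4.03% in neutrophil-like cells (ratio 3.85), followed by Rps2 (2.88), Rps27l (2.81), Rps27 (2.78) and Rps27a (2.73). Summed over all members, 1.28% to 2.90% of the pool lay in different genes between the 2 mice of the same class. The same measure was 4.02% and 4.34% between preosteoblast-like and reticular-like cells, 3.71% and 3.52% between periosteal-like and reticular-like cells, and 13.5% and 12.99% between neutrophil-like and reticular-like cells. All of these exceeded the difference between mice. The ratio of large to small subunit UMIs was 1.39 ± 0.00037 (SD, n = 2) in osteoblast-like, 1.33 ± 0.010 in preosteoblast-like and 1.31 ± 0.0010 in reticular-like cells, 1.20 ± 0.013 in mature B-like cells and lowest, at 1.09 ± 0.0096, in neutrophil-like cells.

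The proportions in which pairs of related genes were used varied between classes, and in some classes between mice. Rpl22l1 gave 48.9% and 48.7% of the UMIs of the Rpl22 pair in reticular-like cells, 47.5% and 47.7% in preosteoblast-like and 52.6% and 53.6% in osteoblast-like cells. It gave less in endothelial-like cells (36.04% and 36.2%) and least in mature B-like cells (24.6% and 24.4%). In pro-B-like cells the mice stood apart, at 28.96% and 33.9%. Stromal classes therefore stood above every blood class for this pair, the nearest being neutrophil-like cells at 38.6% and 37.8% beside periosteal-like cells at 45.5% and 44.2%. Neither gene of the pair was called between preosteoblast-like and reticular-like cells.

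Rpl39l stayed a minor partner of Rpl39 and was highest in stroma, at 4.15% and 4.05% in reticular-like, 3.49% and 3.41% in preosteoblast-like, 3.08% and 3.34% in periosteal-like and 1.95% and 2.47% in osteoblast-like cells. In endothelial-like cells it was 0.284% and 0.551%. In pro-B-like cells it was 0 of 5507 UMIs in Mouse #1, which allows up to 0.0545%, and 0.0147% in Mouse #2. The neutrophil-like values of 2.02% and 1.06% rest on 16 and 11 UMIs and overlap with the osteoblast-like range. Free RNA held more Rpl39l than any class, 11.5% and 15.4% of the pair, and its part in the class values was not tested.

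Rpl36al, an autosomal copy of the X-linked Rpl36a, gave 29.98% and 27.9% of its pair in preosteoblast-like cells and 37.9% and 38.8% in reticular-like cells. The highest values were 41.6% and 41.6% in neutrophil-like and 39.2% and 44.4% in osteoblast-like cells, and the endothelial-like values of 28.3% and 30.4% overlapped with the preosteoblast-like ones. Of this pair Rpl36a rose in preosteoblast-like cells (0.64, edgeR adjusted p = 0.0101) and Rpl36al did not pass (0.03). Rps27l gave 20.8% and 20.6% of the Rps27 pair in erythroid-like cells, 13.4% and 14.4% in reticular-like cells and 3.25% and 3.80% in mature B-like cells, where Rps27 was high. Rpl3l gave 10.8% and 7.07% of its pair in neutrophil-like cells, from 30 and 22 UMIs. Elsewhere 0 to 9 UMIs per class and mouse were counted, and the limit that 0 counts allow reached 0.613% of the pair in osteoblast-like cells of Mouse #1 and 0.213% in mature B-like cells of Mouse #2. Rpl7l1 gave 2.61% to 8.63% of its pair in all classes. The 3' ends of Rpl22 and Rpl22l1, of Rpl36a and Rpl36al, and of Rpl39 and Rpl39l share no 50-base stretch within each pair. With other annotated genes the sharing is unequal: 11.9% of stretches in Rpl22 and 61.2% in Rpl22l1, and 100% in Rpl36a and 67.4% in Rpl36al. It is 21.1% in Rpl39 and 0% in Rpl39l. The part of this in the proportions was not tested.

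**Figure D5:**
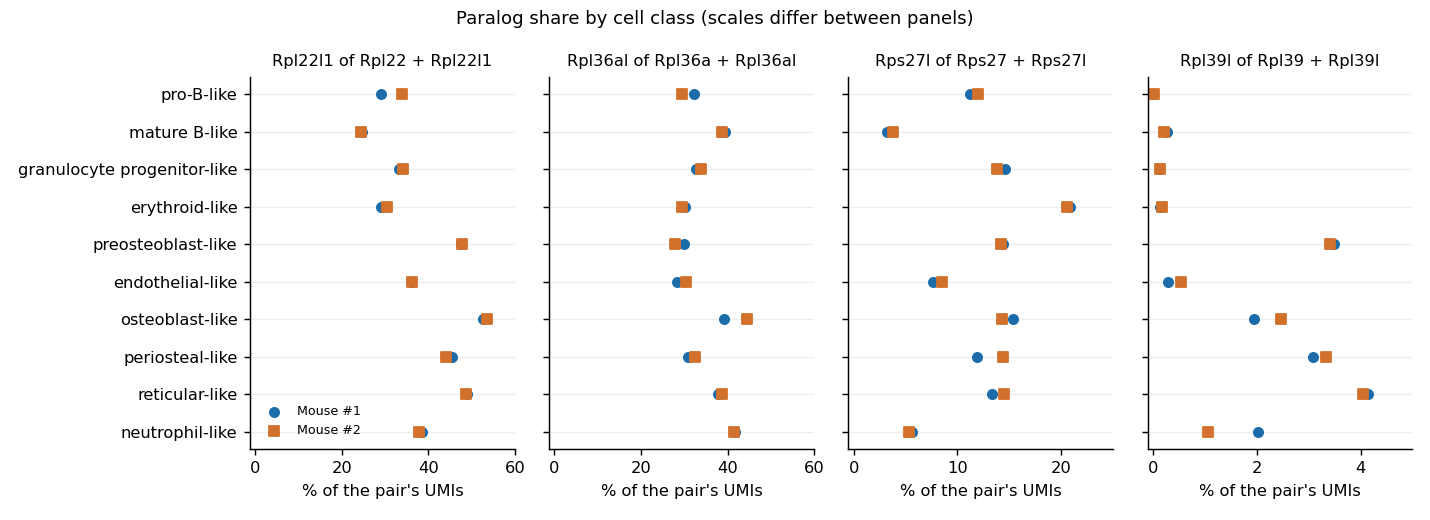
Percent of a pair's UMIs from the second-named gene (x axes, scales differ) by class (rows), with 1 point per mouse, for Rpl22l1, Rpl36al, Rps27l and Rpl39l. Rpl22l1 reaches 48.9% and 48.7% in reticular-like cells and 24.6% and 24.4% in mature B-like cells, and Rpl39l lies at or under 0.551% in endothelial-like, B-lineage, erythroid-like and granulocyte progenitor-like cells.

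Within reticular-like cells the study asks how the tdTomato-marked cells differ. A cell counted as marked when its tdTomato level exceeded that of 99% of the blood cells from the same animal (9.21 and 13.7 tdTomato UMIs per 10000). Marked cells had ribosomal protein shares of 9.59% and 9.63% (492 and 1008 cells) and unmarked cells 9.26% and 8.92% (751 and 1419 cells). Unmarked cells were not free of tdTomato, at 60.4 and 205.0 CPM against 2121 and 2552 CPM in marked cells. Under stricter cell limits the order turned in Mouse #1 (9.34% against 9.39%) and held in Mouse #2 (9.63% against 9.12%). The cutoff also moved there, to 3.44 and 4.33 tdTomato UMIs per 10000, and reticular-like cells of Mouse #1 went from 1243 to 787. The part of each in the turn was not tested. With doublets removed, where cutoff and class changed as well, marked cells held 9.97% and 9.93% and unmarked cells 9.11% and 8.92%. In the main setting the Mouse #1 order also turned within the heat shock cluster (8.93% marked against 9.04% unmarked, 98 and 122 cells). It did so too within the small Cxcl9-led cluster (17.3% against 17.5%, 14 and 27 cells). Marked cells were 302 of 719 in the main reticular-like cluster of Mouse #1 and 78 of 263 in the Bmp4-led cluster, so the clusters were not shared equally.

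In edgeR without a block for mouse, 0 of 85 members were called in either direction, as were 0% of all 12260 genes (5 members and 469 genes at an unadjusted p under 0.05), and DESeq2 also called 0 members. With the mouse as block 24 members were higher and 1 lower, beside 3.15% and 2.63% of all genes, by small amounts with a median of 0.10. The block leaves fewer than the 2 residual degrees of freedom of the fit without it. Its p-values thus rest largely on the spread shared over genes. Rpl22l1 rose by 0.21 ± 0.05 (635.03 and 604.1 against 555.9 and 540.8 CPM, edgeR adjusted p = 0.000323) and Rpl9 and Rps29 by 0.17 each. Rpl39l fell (-0.21, 68.3 and 64.2 against 80.1 and 76.3 CPM, edgeR adjusted p = 0.0206), and the other genes of the lists that were called with the block included Fau (0.14) and Eif3f (0.20). Leaving out the Cxcl9-led cluster gave 18 higher and 1 lower with the block.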

How the data were processed

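The files the authors deposited hold raw UMI counts per feature and barcode for 2 libraries. The header of each matrix gives Cell Ranger version 3.0.0 as what the authors ran, the submitters' processing notes name mm10, and 8 features are reporter sequences. The annotation release was not given in the sources used here. Positions came from GENCODE and start windows from RefSeq of the same build.

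Barcodes with 1000 or more genes and up to 15% mitochondrial UMIs were kept as cells. They were clustered with scanpy 1.11.5 and leidenalg 0.10.2 (2000 variable genes, 30 components, 15 neighbors, resolution 0.5) without the ribosomal proteins, the gene lists, reporters and mitochondrial genes. A cluster took the name of the class with the largest share of its markers at 1.5 times the mean of other clusters and in at least 10% of cells, with at least 3 such markers. The clusters with C1qa and Ccr2, with cell cycle genes, and of shallow depth stayed unnamed. Doublets were kept, since Scrublet marked 1 and 3 cells and had not worked. An alternative removed the 60 and 168 highest scores.

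Counts were summed per mouse and class with at least 20 cells in each mouse and tested with edgeR 4.0.16 (R 4.3.3, TMM, filterByExpr, quasi-likelihood, 9 residual degrees of freedom and 2 for tdTomato). These degrees of freedom are those without the mouse as block, which leaves fewer. A call is a Benjamini-Hochberg adjusted p under 0.05 over all tested genes. The script was tested on simulated data. The pairing by mouse comes from the animals; deviations of the same mouse correlated across genes at 0.309, 0.195, 0.141, 0.092 and 0.00495 in the 5 comparisons in the order given, and at 0.516 for tdTomato. Alternatives were the mouse as block, DESeq2 1.42.0, total UMIs, TMM without the members, no filter, only the compared classes, stricter (2000 genes, 10%) and looser (500 genes, 20%) cells, doublets removed, resolution 1.0, means over cells, the 97th percentile for tdTomato and leaving out each mouse.

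The named members are both genes of each pair, the 5 highest and 5 lowest detected, the 5 called with the largest change in each direction of a comparison, the stalk proteins with Rpsa and 9 Diamond-Blackfan genes; of the other lists the genes with the largest change are named. Rps9, Rps27a and uncalled members were named after their values were seen. Values of 2 members are not reported here. Members and lists were chosen with earlier results of these data known. Intervals and limits cover counting error only, and nothing says the mice were independent litters.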

Additional observations from a re-analysis of the deposited data

How the results depend on the processing

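The share moved with UMIs per cell within classes, and every test rests on 2 mice. With the replicate block, which pairs the classes of a mouse, the tdTomato comparison went from 0 to 24 members higher and 1 lower (18 and 1 without the Cxcl9 cluster) and periosteal-like from 1 to 2 higher; other counts of calls stayed within 1.5 times. Shares moved as follows. The erythroid-like share of 16.6% became 19.6% with strict cells, 13.9% with loose cells, 11.4% as a mean over cells, 25.3% with marker UMIs left out and 4.21% in cells of 10000 to 20000 UMIs. The same last 3 settings gave 3.04%, 6.10% and 2.95% for neutrophil-like (2.94% with doublets removed), 9.68%, 10.7% and 9.97% for periosteal-like and, for the mean and the marker setting, 8.99% and 9.55% for reticular-like (9.44% with loose cells). Granulocyte progenitor-like became 24.0% without marker UMIs, mature B-like 24.2% with doublets removed, osteoblast-like 11.9% and pro-B-like 22.5% as means over cells, and preosteoblast-like 12.0% as a mean, 11.3% at 10000 to 20000 UMIs and 11.1% at resolution 1.0, where the Npy-led and Spp1-led clusters stayed unnamed.

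Preosteoblast-like minus reticular-like ranged from 11 to 45 members higher when each mouse was left out and fell to 1 at 10000 to 20000 UMIs. Relative to the ribosomal protein sum it gave 0 to 1 higher and 1 to 2 lower when each mouse was left out, 1 and 1 without the filter, 1 higher with only the 2 classes or strict cells, and 0 and 0 at 10000 to 20000 UMIs. Periosteal-like gave 25 higher with DESeq2, 9 with only the 2 classes, 3 with strict cells, 2 with doublets removed and 0 to 1 when a mouse was left out. Endothelial-like gave 55 higher with total UMIs, 67 with DESeq2, 51 with only the 2 classes, 52 with strict cells and 13 to 19 when a mouse was left out. Neutrophil-like gave 2 higher with DESeq2. Mature B-like gave 18 lower with total UMIs and with doublets removed, 15 to 34 lower and 1 to 3 higher when a mouse was left out. Among pairs, the reticular-like Rpl22l1 share became 47.7% with strict cells and with doublets removed, and Rpl39l 4.24% with doublets removed. The class itself changed there: Mouse #1 had 1243 reticular-like cells in the main setting, 787 with strict cells and 795 with doublets removed. Its unnamed cells went from 236 to 760 and 614. The cause of the changed shares was not tested. No count of calls and no called member changed direction. With strict cells the neutrophil-like, granulocyte progenitor-like and both B-lineage classes stayed unnamed, so those comparisons were not made there. A mouse left out leaves a class with 1 sum, assumed to vary like the others.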

Other observations

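Clusters outside the comparisons also differed in ribosomal protein share. The unnamed cluster with C1qa and Ccr2, genes of macrophages and monocytes, held 23.9% and 23.2% (112 and 88 cells), close to the B-lineage values. In Mouse #1 this was above the pro-B-like share of 23.5%. At resolution 1.0 a class named monocyte-like held 25.8% and 24.9%. Pro-B-like cells held 23.4% and 26.2% there and mature B-like cells 19.8% and 24.4%. A cycling cluster with Acta2 held 13.8% and 13.5%. A shallow unnamed cluster of 58 and 133 cells, with median UMIs of 3202.5 and 2928 and 9.17% and 8.84% mitochondrial UMIs, held 2.02% and 2.00%, below the free RNA of its mice. The small Cxcl9-led reticular-like cluster (41 and 45 cells) was shallow too, at 4029 and 3481 UMIs, and held 17.4% and 14.9%, against 9.51% and 9.44% in the main reticular-like cluster. Without it the reticular-like share was 9.30% and 9.18%. The heat shock cluster of reticular-like cells held 8.995% and 8.66%, and that led by Bmp4 8.86% and 9.12%.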
